A study of Mus musculus with 18 samples.

Results

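The heat shock and unfolded protein response genes described here are 48 protein-folding and stress-response genes, found by name among the 29942 gene names of an expression table from mouse striatum. Of these, 26 belong to the cytosolic and mitochondrial class and 22 to the endoplasmic reticulum (ER) and unfolded protein response (UPR) class. All 48 were in the table and 47 were tested. Trib3, a pseudokinase induced by stress, had a mean of 0.976 FPKM and fell below the minimum mean of 1 FPKM.

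Striatal polyA RNA from both hemispheres was sequenced in 18 mice of the 129Sv/Jae S4 strain, which were group-housed siblings matched for age and sex. Each of days 1, 7 and 21 had 3 control and 3 treated mice, 6 groups in all. The control mice of each day received intraperitoneal 0.9% saline. The treated mice received D-amphetamine, a psychostimulant that releases dopamine, dissolved in the same saline and given intraperitoneally at 10 ml/kg for a daily total of 7 mg/kg. The study's title ties it to repetitive behaviours caused by the drug, and the comparisons below ask how chaperone transcripts differed with the drug on each day. The labels used here give neither the ages of the mice nor the hour of tissue collection after the last injection.

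Cytosolic stress genes are driven by heat shock factor 1, encoded by Hsf1, which binds repeated heat shock elements when unfolded protein accumulates. In the ER, the sensors IRE1, PERK and ATF6 answer unfolded protein through the transcription factors XBP1, ATF4 and cleaved ATF6, which raise chaperones such as BiP, encoded by Hspa5. Neurons and glia use many of the same chaperones constantly for synaptic and secreted proteins, so several members are abundant in unstressed brain.

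Values are FPKM, which are scaled to transcript length and to mapped fragments, so levels can be compared between genes. The 10 striatal projection neuron markers were all detected in every library, with summed levels from 3693 to 4542 FPKM. Reads per library are not known. The spacing of the smallest FPKM values gave a relative depth of 0.652 to 1 (1 being the deepest), with a greater average depth in the saline group on each day. In bulk tissue, fewer cells of a type and less RNA per cell cannot be told apart. The labels identify each library only by a number. A p-value sets a group difference against the spread between these libraries.

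The cytosolic chaperones Hsp90ab1 and Hspa8, both constitutively expressed, had the highest mean levels of the members, at 427 and 315 FPKM. Hsp90aa1, the inducible HSP90, followed at 151 FPKM. In the ER class Calr (calreticulin, a calcium-binding lectin chaperone) stood at 121 FPKM, Hspa5 at 105 FPKM and Xbp1 at 104 FPKM. The strictly inducible HSP70 genes were at the other end, with 1.83 FPKM for Hspa1a and 1.66 FPKM for Hspa1b. These last genes are neighbours in the reference annotation and nearly identical in sequence, so the sharing of reads between them is uncertain.

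Promoter sequence was looked at because the ER genes are known to share a control element. RefSeq promoters (build GRCm38.p6) were matched for 39 of the 48 members, 20 cytosolic or mitochondrial and 19 ER. Hsf1, Hspa8, Hsp90aa1, Hsp90ab1, Cryab, Hspa9, Hspa13, Hyou1 and Manf had no match and were not searched. Both strands of the 250 bases before the start were searched for 6 motifs, 2 of which were chosen after the values of Dnajb5 had been seen. The ER stress element, CCAAT and CCACG separated by 9 bases, was found in 7 of 19 ER genes and 0 of 20 others, against 0.13% of the 27025 genes with a promoter. A gene with several promoters was counted once. Its piece CCACG alone was in 13 of 19 and 10 of 20, against 31.0%. The heat shock element, 3 units of GAA and TTC in alternating orientation, was in 0 of 19 and 2 of 20, against 0.514%. TGATGNAA, a form of the ATF4 response element, was in 1 of 19 (Herpud1) and 0 of 20, against 3.91%. The later motifs were TGACGTCA, in 0 of 19 and 0 of 20 against 1.77%, and TGACG, in 9 of 19 and 12 of 20 against 19.8%. Motif pieces overlap one another, and base composition was not matched. The stretches below are shown because they hold every complete ER stress element and the only heat shock element found. Capitals mark the matches and the strand is that of the gene.
Hspa5, chr2:34772005-34772063, plus strand: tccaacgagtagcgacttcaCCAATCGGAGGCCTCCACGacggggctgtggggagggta
Calr, chr8:84847055-84847113, minus strand: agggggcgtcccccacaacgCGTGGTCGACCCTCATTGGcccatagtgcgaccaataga
Canx, chr11:50325780-50325838, minus strand: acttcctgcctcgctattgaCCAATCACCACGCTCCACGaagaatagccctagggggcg
Pdia6, chr12:17266471-17266529, plus strand: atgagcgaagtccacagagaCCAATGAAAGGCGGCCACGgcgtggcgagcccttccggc
Dnajc3, chr14:118937807-118937865, plus strand: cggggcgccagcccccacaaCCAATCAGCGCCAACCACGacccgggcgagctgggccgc
Creld2, chr15:88819500-88819558, plus strand: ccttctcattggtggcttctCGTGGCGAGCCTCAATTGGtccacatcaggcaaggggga
Hsp90b1, chr10:86705513-86705676, minus strand: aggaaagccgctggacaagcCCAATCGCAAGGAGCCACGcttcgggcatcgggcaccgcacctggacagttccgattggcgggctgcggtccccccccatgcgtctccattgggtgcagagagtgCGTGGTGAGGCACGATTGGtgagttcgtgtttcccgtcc
Hspd1, shared with its neighbour Hspe1, chr1:55088039-55088096, minus strand: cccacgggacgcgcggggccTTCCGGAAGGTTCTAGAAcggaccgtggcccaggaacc
Hsp90b1 carried 2 matches and the other ER genes 1 each. A match describes letters in this window and was not tested as a binding site.

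No member passed the adjusted threshold of 0.05 for amphetamine against saline on any day or in the mean of the days. Among all 13975 tested genes the share called was also small, at 0.00716% on day 1, 0.0215% on day 7, 0 on day 21 and 0.122% in the mean (limma, Benjamini-Hochberg adjustment). At an unadjusted p under 0.05, 3 of 47 members differed on day 1 against 7.25% of genes, 3 on day 7 against 4.92%, 1 on day 21 against 5.5% and 4 in the mean against 5.36%. These member counts are near the shares of all genes. Groups that did not overlap and were higher with amphetamine were seen for 3 of 47 members on day 1 (Dnajb5, Hspd1 and Edem1), against 7.73% of genes. On day 7 they were seen for 5 (Hsph1, Dnajb5, Ddit3, Xbp1 and Creld2), against 5.45%.

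**Figure D1:**
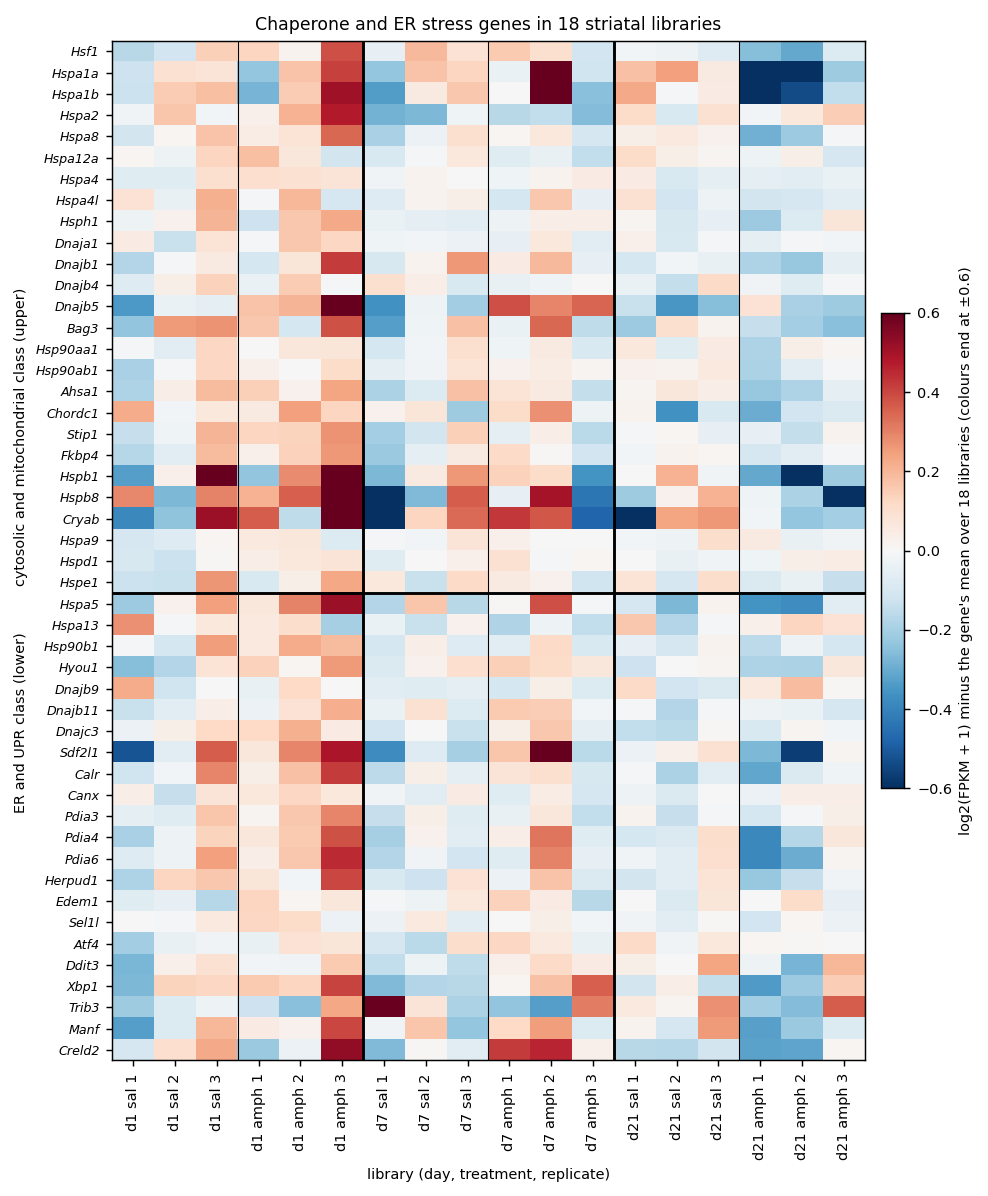
Rows are the 48 members, with the cytosolic and mitochondrial class above the heavy line; columns are the 18 libraries by day, treatment and replicate, and colour is log2(FPKM + 1) minus the gene's mean. Some columns are warm or cool over most genes, such as the warm replicate 3 of amphetamine on day 1 and the cool replicates 1 and 2 of amphetamine on day 21.

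Among the cytosolic HSP70 partners, Dnajb5, a J-domain co-chaperone of the HSP40 family, had the lowest p of the members on days 1 and 7 and in the mean. On day 1 it stood at 25.6, 31.8 and 31.4 FPKM with saline and at 37.0, 37.9 and 53.8 FPKM with amphetamine. On day 7 the saline libraries read 25.3, 32.1 and 28.2 FPKM and the amphetamine libraries 43.1, 40.3 and 42.1 FPKM. On day 21 the values were 29.8, 25.5 and 27.3 FPKM with saline and 34.8, 28.5 and 28.2 FPKM with amphetamine. The groups were separate on days 1 and 7, higher with amphetamine, and overlapped on day 21. Separation upward on both early days was seen for 0.608% of all genes. The log2 difference was 0.51 ± 0.14 (SE) on day 1, 0.54 ± 0.14 on day 7 and 0.14 ± 0.14 on day 21. The mean of days was 0.40 ± 0.08, which did not pass (limma adjusted p = 0.102; range over the alternatives 0.0629 to 0.314).

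The inducible HSP70 gene Hspa1a differed most by p on day 21. Its saline values that day were 2.11, 2.26 and 1.85 FPKM, and its amphetamine values 0.767, 0.647 and 1.37 FPKM. Every amphetamine library lay below every saline library. The difference was -0.69 ± 0.23 on the log2(FPKM + 1) scale and did not pass (limma adjusted p = 0.869). On day 1 Hspa1a read 1.53, 1.93 and 1.90 FPKM with saline and 1.34, 2.09 and 2.66 FPKM with amphetamine. On day 7 it read 1.34, 2.10 and 2.01 FPKM with saline and 1.68, 3.84 and 1.53 FPKM with amphetamine. The groups overlapped on both of those days. Its near copy Hspa1b showed the same separation on day 21, with 2.02, 1.56 and 1.67 FPKM against 0.629, 0.783 and 1.33 FPKM and a difference of -0.54 ± 0.26. Earlier its groups overlapped, with 1.36, 1.87 and 1.93 FPKM against 1.13, 1.87 and 2.67 FPKM on day 1, and 1.05, 1.68 and 1.89 FPKM against 1.59, 3.69 and 1.17 FPKM on day 7. Since reads may be shared between these copies, they are not independent observations.

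Day 21 was also the day on which other cytosolic members lay lower with amphetamine. Hspa8, the constitutive HSC70, read 321, 326 and 319 FPKM with saline and 256, 269 and 312 FPKM with amphetamine, a log2 difference of -0.21 ± 0.10. Hsf1 read 17.8, 17.5 and 16.98 FPKM against 14.8, 14.3 and 16.9 FPKM, a difference of -0.18 ± 0.11. Ahsa1, an activator of the HSP90 ATPase, read 42.9, 44.5 and 43.6 FPKM against 36.0, 37.1 and 40.7 FPKM, a difference of -0.20 ± 0.10. For Hspb1, a small heat shock protein that holds unfolded protein, the values were 5.97, 7.04 and 5.86 FPKM against 4.62, 3.40 and 5.002 FPKM. With Hsp90ab1, Hspa1a and Hspa1b, 7 of 26 cytosolic and mitochondrial members and 0 of 21 ER members had groups that did not overlap and lay lower, against 7.51% of genes. None of the 7 passed adjustment.

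On the earlier days the same genes overlapped between treatments. Hspa8 read 290, 315 and 353 FPKM with saline against 323, 332 and 398 FPKM with amphetamine on day 1, and 274, 305 and 335 FPKM against 315, 327 and 292 FPKM on day 7. Hsf1 read 15.9, 16.5 and 19.9 FPKM against 19.7, 18.2 and 23.8 FPKM on day 1, and 17.3, 20.7 and 19.1 FPKM against 20.1, 19.2 and 16.5 FPKM on day 7. In these genes the highest day 1 value was in replicate 3 of amphetamine. Ahsa1 read 37.1, 43.7 and 48.5 FPKM against 46.9, 43.1 and 50.1 FPKM on day 1, and 37, 39.9 and 47.97 FPKM against 44.9, 44.1 and 38.3 FPKM on day 7. Hspb1 read 4.52, 6.10 and 10.3 FPKM against 4.89, 7.46 and 9.54 FPKM on day 1, and 4.76, 6.22 and 7.34 FPKM against 6.66, 6.51 and 4.42 FPKM on day 7. The spread within each group of Hspb1 on these days was larger than the difference between groups.

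The day 21 count moved with the processing. With relative depth as a covariate, an alternative added after the data were seen, the day 21 count at an unadjusted p was 13 members in place of 1, and with array weights it was 8. Without replicate 3 of amphetamine on day 21 it was 5. The share of all genes called in these fits is not given here, so the counts cannot be set against it. Markers of other cell types were also unequal between treatments that day. The 3 tested blood markers were higher with amphetamine, with sums of 91.8 to 147 FPKM with saline and 152 to 262 FPKM with amphetamine, and 7 of 8 oligodendrocyte markers were lower, with sums of 1462 to 2073 and 1498 to 1819 FPKM. The sum of 6 cortical neuron markers was 765 to 944 FPKM with saline and 688 to 724 FPKM with amphetamine. Most of that sum was Nrgn (703 to 935 and 661 to 710 FPKM), which striatal neurons also express, while Slc17a7, a vesicular glutamate transporter of cortical neurons, overlapped at 7.42 to 48.4 and 10.5 to 20.3 FPKM. The part of these cells in the result was not tested.

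**Figure D2:**
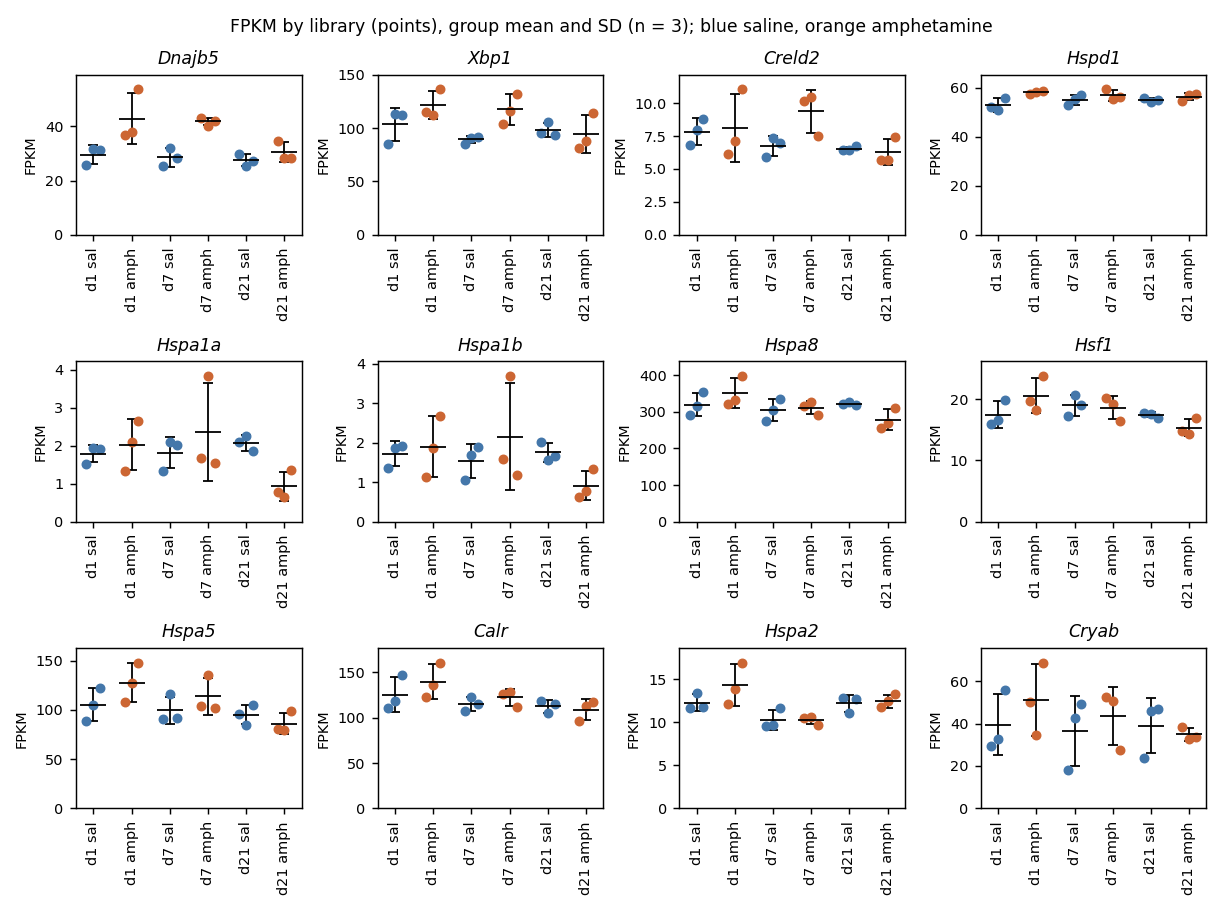
Each panel plots FPKM by library for 1 member in the 6 groups, with the group mean and SD (n = 3) as bars. Dnajb5 is separate between treatments on days 1 and 7, and Hspa1a, Hspa1b, Hspa8 and Hsf1 are separate and lower with amphetamine on day 21.

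Hsp90aa1, Dnajb1, Chordc1 and Hspa2 overlapped between treatments on each day. Hsp90aa1 read 149, 144 and 164 FPKM against 150, 158 and 158 FPKM on day 1, and its mean difference was -0.01 ± 0.04. It read 140, 149 and 161 FPKM against 148, 156 and 141 FPKM on day 7, and 157, 143 and 156 FPKM against 132, 154 and 152 FPKM on day 21, with overlap each time. Dnajb1, the HSP40 partner of HSP70 in the heat shock response, read 18.1, 20.4 and 21.3 FPKM with saline on day 1 and 19.01, 21.6 and 27.7 FPKM with amphetamine. Its differences were 0.17 ± 0.12 on day 1, 0.01 ± 0.12 on day 7 and -0.10 ± 0.12 on day 21. The later values overlapped as well, at 19.1, 20.8 and 24.7 FPKM against 21.3, 23.7 and 19.8 FPKM on day 7, and 18.98, 20.3 and 19.9 FPKM against 17.9, 17.4 and 19.7 FPKM on day 21. Chordc1, an HSP90 co-chaperone, had a difference of 0.16 ± 0.11 on day 7 (0.069 to 0.23 with 1 library left out) and a mean difference of 0.06 ± 0.06. It read 28.1, 23.7 and 25.1 FPKM against 24.9, 28.7 and 26.4 FPKM on day 1, 24.4, 25.3 and 20.6 FPKM against 25.97, 29.2 and 23.5 FPKM on day 7, and 24.4, 18.5 and 22.5 FPKM against 19.3, 22.1 and 22.5 FPKM on day 21. Its lowest value was that of replicate 2 of saline on day 21. Hspa2, an HSP70 best known from testis, read 11.7, 13.4 and 11.7 FPKM with saline and 12.2, 13.9 and 16.9 FPKM with amphetamine on day 1, a difference of 0.20 ± 0.10 that was 0.077 without replicate 3 of amphetamine and 0.30 without its replicate 1. It read 9.58, 9.68 and 11.7 FPKM against 10.5, 10.6 and 9.75 FPKM on day 7, and 12.9, 11.1 and 12.7 FPKM against 11.7, 12.4 and 13.3 FPKM on day 21. Both treatments were lowest on average on day 7.

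Hspd1, the mitochondrial chaperonin HSP60, was separate on day 1. Saline libraries read 52.0, 50.8 and 55.9 FPKM and amphetamine libraries 57.2, 58.1 and 58.7 FPKM. The difference was small and did not pass, at 0.13 ± 0.05 (limma adjusted p = 0.666). On day 7 Hspd1 read 52.8, 55.4 and 56.8 FPKM against 59.4, 55.2 and 55.99 FPKM, and on day 21 55.7, 53.95 and 54.8 FPKM against 54.6, 56.9 and 57.3 FPKM, with overlap. Its co-chaperonin Hspe1, which shares the heat shock element printed above, differed by 0.06 ± 0.11 on day 1.

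Cryab, the small heat shock protein alphaB-crystallin that is abundant in oligodendrocytes, varied widely within groups. On day 1 it read 29.5, 32.7 and 55.8 FPKM with saline and 50.1, 34.8 and 68.6 FPKM with amphetamine. On day 7 the values were 18.04, 42.5 and 49.3 FPKM against 52.4, 50.5 and 27.6 FPKM, and on day 21 24.0, 45.9 and 46.7 FPKM against 38.3, 32.8 and 33.6 FPKM. The groups overlapped on all 3 days. After removal of group means, Cryab followed the mean of 8 oligodendrocyte markers over the 18 libraries, with r = 0.898 and rho = 0.874 (permutation within groups, adjusted p = 0.00103 and 0.00297). This pair was chosen after its values had been seen. Without the 2 libraries farthest from the median, r was 0.875.

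In the ER, the transcription factor Xbp1 was separate on day 7. It read 85.5, 90.9 and 91.7 FPKM with saline and 104, 116 and 132 FPKM with amphetamine. The log2 difference was 0.38 ± 0.13 and did not pass (limma adjusted p = 0.832). On day 1 Xbp1 read 85.3, 113 and 112 FPKM against 115, 113 and 137 FPKM, and on day 21 95.3, 106 and 93.1 FPKM against 81.1, 88.3 and 114 FPKM. FPKM per gene does not separate spliced from unspliced Xbp1 transcripts, so activation of IRE1 cannot be read from it. Creld2, a secreted ER stress protein whose promoter held an ER stress element, read 5.94, 7.39 and 6.97 FPKM with saline on day 7 and 10.2, 10.5 and 7.52 FPKM with amphetamine. Its difference that day was 0.41 ± 0.17, and 0.02 ± 0.17 on day 1, when it read 6.79, 7.97 and 8.78 FPKM against 6.16, 7.16 and 11.1 FPKM. Day 21 gave 6.44, 6.43 and 6.73 FPKM against 5.69, 5.70 and 7.42 FPKM. Thus the separation of Creld2 was seen on day 7 and the groups overlapped on days 1 and 21.

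The integrated stress response factors Atf4 and Ddit3 (CHOP, linked to cell death under prolonged ER stress) showed small differences. Ddit3 read 19.1, 20.8 and 19.03 FPKM against 21.7, 23.1 and 22.0 FPKM on day 7, where the groups were separate, with a difference of 0.17 ± 0.11. It overlapped on day 1, at 17.4, 21.7 and 22.7 FPKM against 21.01, 20.9 and 23.8 FPKM, and on day 21, at 21.8, 21.3 and 25.2 FPKM against 20.8, 17.3 and 24.5 FPKM. Atf4 differed by 0.13 ± 0.07 on day 1, 0.10 ± 0.07 on day 7 and -0.05 ± 0.07 on day 21, with overlap on each day. Its values were 23.8, 26.8 and 27.3 FPKM against 26.8, 29.4 and 29.2 FPKM, then 25.8, 24.7 and 29.9 FPKM against 30.3, 28.9 and 26.8 FPKM, then 30.1, 27.3 and 28.99 FPKM against 27.9, 27.9 and 27.7 FPKM. ATF4 is controlled largely at translation, which RNA levels do not show.

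Cell type markers were also unequal on day 7, when Xbp1, Creld2, Ddit3 and Dnajb5 were separate. The cortical marker sum, again mostly Nrgn, was 817 to 920 FPKM with saline and 657 to 806 FPKM with amphetamine. Of the 10 striatal projection neuron markers 8 were lower with amphetamine, with sums of 4145 to 4482 and 3755 to 4469 FPKM. The 3 tested blood markers were lower, with sums of 115 to 888 FPKM with saline and 143 to 348 FPKM with amphetamine, and replicate 2 of saline stood apart at 888 FPKM. Replicate 3 stood at 397 FPKM with saline and 348 FPKM with amphetamine. Without replicate 2 of saline the day 7 differences were 0.40 for Xbp1, 0.47 for Creld2, 0.21 for Ddit3 and 0.63 for Dnajb5. Leaving out any 1 library gave 0.30 to 0.47 for Xbp1 and 0.33 to 0.55 for Creld2. It gave 0.15 to 0.21 for Ddit3 and 0.46 to 0.63 for Dnajb5. The part of blood and of these cells in the values was not tested.

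Hspa5, the master ER chaperone, read 88.5, 105 and 122 FPKM with saline and 108, 127 and 148 FPKM with amphetamine on day 1. On day 7 it read 91.2, 116 and 91.9 FPKM against 104, 135 and 102 FPKM. On day 21 it read 96.0, 85.3 and 105 FPKM against 80.3, 79.4 and 98.5 FPKM. The groups overlapped each time, and the differences were 0.28 ± 0.15, 0.19 ± 0.15 and -0.15 ± 0.15. The first was 0.16 without replicate 1 of saline or replicate 3 of amphetamine and 0.054 with array weights, and the second 0.058 without replicate 2 of amphetamine. Hsp90b1, the ER HSP90 called GRP94, differed by 0.11 ± 0.09, 0.03 ± 0.09 and -0.06 ± 0.09. It read 86.6, 81.2 and 104 FPKM against 90.9, 102 and 99.9 FPKM on day 1, 81.1, 89.8 and 82.6 FPKM against 83.4, 94.6 and 82.03 FPKM on day 7, and 84.5, 81.4 and 88.5 FPKM against 78.3, 85.5 and 80.97 FPKM on day 21. As for Hspa5, the groups overlapped on all 3 days.

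Other partners of BiP followed. Hyou1, a nucleotide exchange factor for BiP, read 16.4, 17.4 and 21.0 FPKM against 21.9, 19.9 and 23.8 FPKM on day 1, with a difference of 0.25 ± 0.09 and groups that overlapped (limma adjusted p = 0.666). It read 18.5, 20.1 and 21.2 FPKM against 21.9, 21.5 and 20.8 FPKM on day 7, and 18.1, 19.8 and 20.02 FPKM against 17.3, 17.2 and 20.8 FPKM on day 21. Sdf2l1, a luminal partner of ER J-proteins, differed by 0.47 ± 0.23 on day 7, with 5.04, 6.44 and 5.83 FPKM against 7.80, 12.1 and 6.02 FPKM. Replicate 2 of amphetamine was the highest library, and without it the difference was 0.22. It read 4.49, 6.50 and 9.07 FPKM against 7.23, 8.62 and 10 FPKM on day 1, and 6.65, 7.01 and 7.36 FPKM against 5.51, 4.29 and 6.94 FPKM on day 21, with overlap.

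Dnajc3, a luminal J-protein also called P58IPK, and Dnajb11, a BiP co-chaperone, each had a mean difference of 0.09 ± 0.04. Dnajc3 read 10.6, 11.2 and 11.9 FPKM against 11.9, 12.7 and 11.3 FPKM on day 1, 9.95, 10.8 and 9.82 FPKM against 11.1, 12.3 and 10.4 FPKM on day 7, and 9.70, 9.59 and 10.9 FPKM against 10.1, 10.98 and 10.7 FPKM on day 21. Dnajb11 read 14.8, 15.6 and 16.8 FPKM against 15.9, 17.4 and 19.2 FPKM, then 15.8, 17.4 and 15.4 FPKM against 18.3, 18.2 and 16.1 FPKM, then 16.2, 14.3 and 16.2 FPKM against 15.99, 15.9 and 15.2 FPKM. Both genes overlapped between treatments on each day.

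Of the genes for ER-associated degradation, Edem1 directs misfolded glycoproteins out of the folding cycle. It read 3.32, 3.39 and 3.03 FPKM against 3.97, 3.58 and 3.76 FPKM on day 1, without overlap and with a difference of 0.17 ± 0.08. Later it overlapped, at 3.51, 3.45 and 3.75 FPKM against 3.997, 3.69 and 3.04 FPKM on day 7 and 3.54, 3.28 and 3.78 FPKM against 3.54, 3.90 and 3.40 FPKM on day 21. Herpud1, a membrane component of the same pathway, had a mean difference of 0.03 ± 0.07. Its values were 17.7, 22.2 and 22.7 FPKM against 21.3, 19.9 and 27 FPKM, then 18.9, 18.4 and 21.5 FPKM against 19.7, 22.8 and 19 FPKM, then 18.6, 19.2 and 21.5 FPKM against 17.1, 18.3 and 19.9 FPKM. The groups of Herpud1 overlapped throughout.

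Manf, a secreted ER stress protein with neurotrophic activity, differed by 0.23 ± 0.15 on day 1 and -0.27 ± 0.15 on day 21. The former was 0.10 without replicate 1 of saline, 0.11 without replicate 3 of amphetamine, 0.37 without replicate 3 of saline and 0.044 with array weights. It read 12.3, 14.8 and 18.2 FPKM against 16.3, 16.01 and 21.1 FPKM on day 1, 15.5, 17.7 and 13.2 FPKM against 17.1, 18.9 and 14.8 FPKM on day 7, and 15.95, 14.6 and 18.9 FPKM against 12.3, 13.3 and 14.8 FPKM on day 21. The groups overlapped on days 1 and 7 and on day 21, where the highest amphetamine library lay just above the lowest saline library.

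The remaining members are given by the ratio of the highest to the lowest of the 18 libraries, some with their range. Among those tested, the ratio of the highest to the lowest library was smallest for Hspa4, an HSP110-type exchange factor, at 1.15 (41.4 to 47.4 FPKM), and for Hspa9, the mitochondrial HSP70, at 1.16 (44.9 to 51.9 FPKM). The widest was Hspb8 at 5.40, from 1.20 to 6.47 FPKM, followed by Bag3, an HSP70 cofactor in selective autophagy, at 1.86 (2.79 to 5.20 FPKM). The ER disulfide isomerases Pdia6 and Pdia4 followed at 1.82 and 1.76, and calreticulin at 1.66. The ratios of Hsp90ab1, Hspa4l, Hspa12a, Hsph1, Dnaja1, Dnajb4, Stip1, Fkbp4, Hspe1, Canx, Pdia3, Dnajb9, Hspa13 and Sel1l ran from 1.19 to 1.42. The lowest of these was Sel1l and the highest Hspa13. Untested Trib3 ran from 0.548 to 1.93 FPKM, with both ends on day 7.

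For days 1, 7 and 21 the median log2 difference of the cytosolic and mitochondrial class was 0.10, 0.02 and -0.08. For the ER class the medians were 0.14, 0.10 and -0.06, and over all genes 0.05, 0.00 and -0.02. Over the alternatives the day 1 medians ran from 0.015 to 0.16 and from 0.044 to 0.19, the lower ends with array weights. For the cytosolic and mitochondrial class the range was -0.03 to 0.07 on day 7 and -0.15 to -0.06 on day 21, and for the ER class it was 0.05 to 0.14 on day 7. The ER median of day 21 ran from -0.14 with relative depth as a covariate to -0.0036 without replicate 1 of amphetamine. In the mean of days, 20 of 21 ER members and 14 of 26 cytosolic and mitochondrial members were higher with amphetamine, against 55.6% of genes. The ER median of that mean was 0.06, with a range of 0.01 to 0.08 over the alternatives. Since members move together from library to library, these counts are not counts of independent genes.

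**Figure D3:**
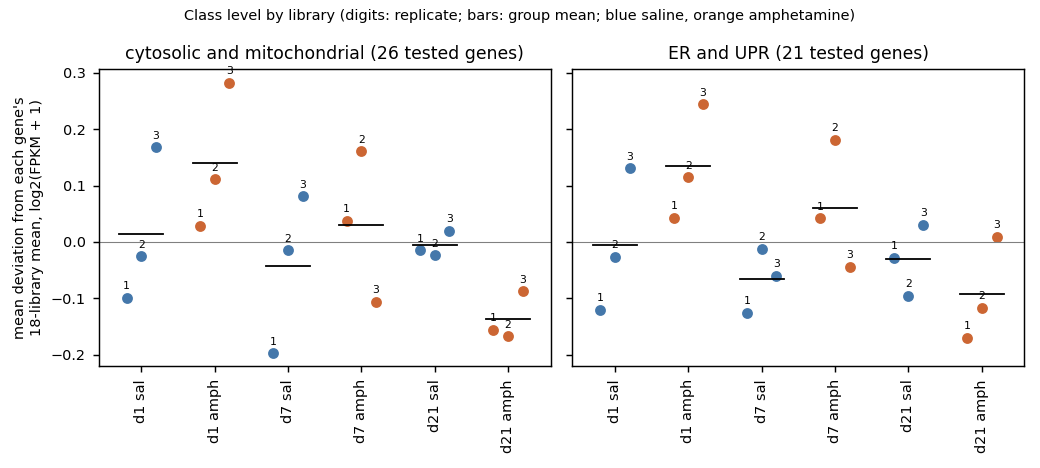
Each point is 1 library, numbered by replicate, and shows the mean deviation of a class's tested members from their own 18-library means on the log2(FPKM + 1) scale; bars are group means. In both panels replicate 3 of amphetamine on day 1 is the highest library, at 0.28 and 0.24, and libraries of 1 group spread widely.

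Much of the library to library spread was shared by both classes. The exceptions in sign were replicate 3 of saline on day 7 and replicate 3 of amphetamine on day 21. The former stood at 0.08 for the cytosolic and mitochondrial class and -0.06 for the ER class, the latter at -0.09 and 0.01. In replicate 3 of amphetamine on day 1 the mean deviation was 0.28 for the cytosolic and mitochondrial class and 0.24 for the ER class. In replicate 3 of saline on the same day it was 0.17 and 0.13. Replicate 1 of saline on day 7 was low in both, at -0.20 and -0.13, as was replicate 1 of amphetamine on day 21, at -0.16 and -0.17. Thus a control library on day 1 exceeded 2 of the 3 amphetamine libraries of that day in both classes. Without that saline library, 15 members in place of 3 had an unadjusted p under 0.05 on day 1, and without replicate 1 of amphetamine 8 did. The share of all genes in those fits is not given here, so a rise particular to members cannot be read from these counts. The summed oligodendrocyte markers on day 1 were 1320 to 2288 FPKM with saline and 1813 to 2960 FPKM with amphetamine, with 8 of 8 higher on average. For astrocyte markers the sums were 436 to 522 and 520 to 609 FPKM, with 7 of 8 higher. None of either list was at 0. Choroid plexus markers were separate that day, with sums over 5 genes of 10.7 to 19.9 FPKM with saline and 26.6 to 102 FPKM with amphetamine. Most of that was Ttr, at 8.002 ± 5.25 and 50.7 ± 37.1 FPKM (SD, n = 3), and 2 of the 5 were at 0 in some library. Ependymal sums (10.2 to 14.7 and 10.8 to 29.3 FPKM) and blood sums (78.8 to 121 and 108 to 154 FPKM) overlapped, with every tested marker of both lists higher on average. Of the 3 tested cortical neuron markers 2 were lower with amphetamine. Slc17a7 ranged from 4.14 to 27.6 FPKM with saline and from 1.61 to 12.7 FPKM with amphetamine, with overlap. The part of these cells in the chaperone values was not tested.

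Chaperone pairs chosen by role were compared over 18 libraries after group means had been removed. There were 8 such pairs, and p-values were adjusted over 9 with the Cryab comparison. Hspa5 followed Pdia4, an ER disulfide isomerase, with r = 0.888 and rho = 0.794 (permutation within groups, adjusted p = 0.00103 and 0.00369). Hspa5 followed Calr with r = 0.814 and rho = 0.822 (permutation, adjusted p = 0.00459 and 0.00369). These correlations were 0.849 and 0.797 without the 2 libraries farthest from the median. Within the 7 libraries of the lowest and of the highest range of label numbers, r was 0.896 and 0.953 for Pdia4 and 0.748 and 0.935 for Calr.

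The cytosolic pair Hspa1b and Dnajb1 had r = 0.799 and rho = 0.781 (permutation, adjusted p = 0.00282 and 0.0085), and r = 0.84 without the 2 farthest libraries. Within the same 2 ranges it was 0.835 and 0.942. Hspa5 followed Hsp90b1 with r = 0.711 and rho = 0.707 (permutation, adjusted p = 0.0191 and 0.0259), and r fell to 0.589 without the 2 farthest libraries. Across compartments, Hspa5 and Hspa8 had r = 0.683 and rho = 0.622 (permutation, adjusted p = 0.023 and 0.0265). Hspa8 and Hsp90aa1 gave r = 0.671 and rho = 0.659 (permutation, adjusted p = 0.023 and 0.0265). Without the 2 farthest libraries r was 0.627 for Hspa5 and Hspa8 and 0.704 for Hspa8 and Hsp90aa1. For Hspa8 and Hsph1, r was 0.668 but rho was 0.509 (permutation, adjusted p = 0.0462 and 0.103), and r fell to 0.505 without the 2 farthest libraries. The neighbours Hspd1 and Hspe1 did not pass, with r = 0.581 and rho = 0.525 (permutation, adjusted p = 0.0719 and 0.0724). Their r was 0.368 without the 2 farthest libraries, and 0.0613 and 0.819 within the lowest and highest label ranges. Correlations of other gene pairs were not computed for comparison. Libraries also share depth and tissue composition, whose part in these correlations was not tested.

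**Figure D4:**
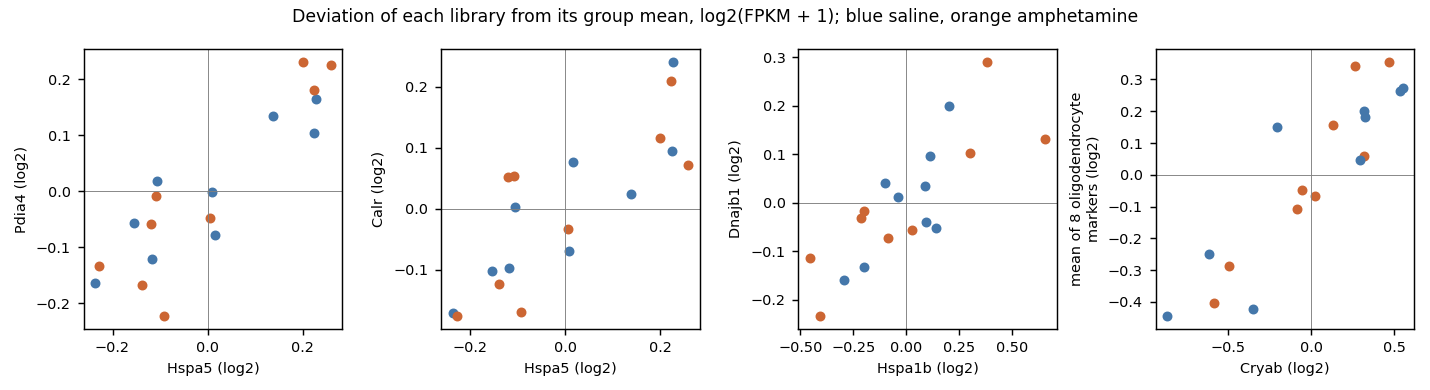
Each point is 1 of 18 libraries, plotted as the deviation from its group mean in log2(FPKM + 1) for the gene on each axis. The points rise along the diagonal for Hspa5 with Pdia4 (r = 0.888) and Calr (r = 0.814), Hspa1b with Dnajb1 (r = 0.799) and Cryab with 8 oligodendrocyte markers (r = 0.898).

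Days were also compared within each treatment. In a test over the 3 days, 18 of 47 members had an unadjusted p under 0.05 in amphetamine mice against 11.2% of genes, and 0 of 47 in saline mice against 5.95%. Adjusted calls over all genes were 0 with amphetamine and 0.00716% with saline. No member passed, the lowest adjusted p being 0.324 for Hspa2 (limma). The direct contrast of day 21 with day 1 was added after these results had been seen. With amphetamine, 25 of 47 members were lower on day 21 at an unadjusted p under 0.05, against 6.86% of genes, and 45 of 47 were lower in sign, against 59.2%. With saline, 0 of 47 were lower at that p, against 1.63%, and 29 of 47 were lower in sign, against 39.6%.

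The 25 comprised 13 cytosolic and 12 ER genes, and 21 of 47 members had days that did not overlap, against 10.4% of genes. Hsf1 went from 19.7, 18.2 and 23.8 FPKM on day 1 to 14.8, 14.3 and 16.9 FPKM on day 21, a log2 difference of -0.40 ± 0.11 without overlap (limma adjusted p = 0.371). Hspa5 differed by -0.56 ± 0.15, from 108, 127 and 148 FPKM to 80.3, 79.4 and 98.5 FPKM, also without overlap. Hspb8, a small heat shock protein that works with BAG3, had the lowest value of the members, at -0.74 ± 0.31. Class medians were -0.22 for the cytosolic and mitochondrial class and -0.24 for the ER class, against -0.03 over all genes. The exceptions in sign were Hspa13 and Dnajb9, both ER members.

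Whether that day difference itself differed between treatments was tested directly. At an unadjusted p, 6 of 47 members (Hsf1, Hspa1a, Hspa8, Ahsa1, Hyou1 and Manf) had a more negative day difference with amphetamine, against 7.01% of genes, and none passed adjustment (limma, lowest adjusted p = 0.473). Over all 3 days, the treatment by day test gave 1 member, Hspa1a, at an unadjusted p under 0.05, against 6.25% of genes (limma adjusted p = 0.773).

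The day contrast in amphetamine mice rested on few libraries. The count of 25 was 11 without replicate 3 of amphetamine on day 1, 11 without replicate 1 of amphetamine on day 21 and 14 without its replicate 2. The table's header numbers fall into 3 ranges whose meaning the labels do not give. All 3 amphetamine libraries of day 1 were in the highest range, while those of day 21 had 1 library in each. With the range as a covariate the count was 5 and the ER median -0.12. The 3-day count of 18 was 10, 5 and 7 without the same libraries in that order. Shares of all genes in these re-fits are not given here. Between the same days, 7 of 8 oligodendrocyte and 7 of 8 astrocyte markers were lower in amphetamine mice, with sums on day 21 of 1498 to 1819 and 472 to 489 FPKM. The 3 tested choroid plexus markers were lower as well, with a sum over 5 genes of 12.2 to 28.5 FPKM on day 21, and the 3 blood markers were higher. Of the 3 tested cortical neuron markers 2 were higher on day 21, and the median log2 difference of the 3 was 0.72. Slc17a7 ranged from 1.61 to 12.7 FPKM on day 1 and from 10.5 to 20.3 FPKM on day 21, with overlap. The part of these cells in the result was not tested.

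**Figure D5:**
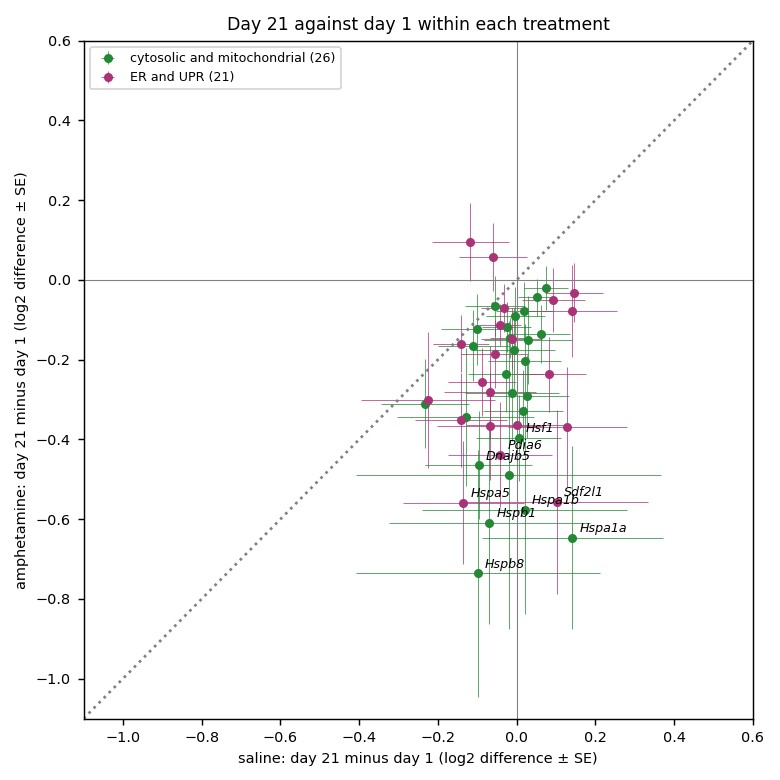
Each point is 1 tested member, with the day 21 minus day 1 log2 difference (± SE) in saline mice on the horizontal axis and in amphetamine mice on the vertical axis; the dotted line marks equal differences. Points spread around 0 horizontally, while 45 of 47 lie below 0 vertically.

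A wider list of 95 other proteostasis genes was looked at for context, of which 90 were tested. One of them, Ppp1r15a (GADD34), which directs dephosphorylation of eIF2alpha downstream of ATF4, rose in the mean of days. Its level was 5.13 ± 0.26, 4.74 ± 0.66 and 5.38 ± 0.82 FPKM with saline and 8.04 ± 1.12, 7.62 ± 0.62 and 8.02 ± 1.07 FPKM with amphetamine on days 1, 7 and 21 (SD, n = 3). The log2 difference was 0.55 ± 0.07 (limma adjusted p = 0.00237). Ppp1r15a is also an activity-regulated gene, and the members Atf4 and Ddit3 of the same branch did not pass. The next by p were Fkbp5, a glucocorticoid-induced HSP90 co-chaperone, at 0.14 ± 0.05, and Wfs1, an ER membrane protein, at 0.26 ± 0.11, neither of which passed. As with the members, most of the 90 were lower on day 21 than on day 1 in amphetamine mice. This held for 29 of 32 cytosolic, 37 of 47 ER and 7 of 11 mitochondrial genes, against 59.2% of all genes. Each median was -0.08. In the mean of days, 19 of the cytosolic, 32 of the ER and 10 of the mitochondrial genes were higher with amphetamine, against 55.6%. For day 21 against saline, 26, 30 and 6 of them were lower, against 7915 of 13975 genes.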

How the data were processed

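The authors deposited one table of FPKM for 18 libraries. The submitters' processing notes name Bowtie and mm9; the versions, the quantifier, the annotation and the handling of strand are not given in the sources. Columns were matched to samples by header number, and 0 columns belonged to other samples. Members and lists were chosen with earlier results of these data known.

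Values were tested as log2(FPKM + 1), which understates changes of low genes, for 13975 genes with a mean of at least 1 FPKM. limma 3.58.1 (R 4.3.3) fitted 6 group means with a mean-variance trend (residual df 12). P-values were two-sided and Benjamini-Hochberg adjusted over all tested genes, threshold 0.05. Pairwise day contrasts, a relative depth covariate, 1 correlation pair and 2 motifs were added after values were seen. Correlations used 100000 permutations within groups (numpy 2.4.6). Up to 29 alternatives were run per result.

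Named members had the 5 smallest p in a contrast or were chosen by role, as were 3 other proteostasis genes by p. Deviations of same-numbered libraries of a day's 2 treatments correlated at r from -0.09 to 0.14, and those of other-numbered ones at -0.14 to 0.13. On day 21 the same-numbered values were 0.11, 0.04 and 0.14, and the others ran from -0.13 to 0.01. The labels do not say which mice were siblings or shared a cage, so numbers were not taken as pairs. These values do not settle whether they were. The fit was tested on simulated data. Libraries of 1 group correlated at r = 0.920 to 0.939 and 0 columns were identical. Figures used matplotlib 3.10.9.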

Additional observations from a re-analysis of the deposited data

How the results depend on the processing

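No member passed the adjusted threshold under any alternative run. Some class medians near 0 changed sign: those of the cytosolic and mitochondrial class kept it in 26 of 29 alternatives on day 7, 22 of 28 in the mean and 25 of 28 in the saline day contrast, and the ER median of the last in 27 of 28. Counts of members at an unadjusted p under 0.05 moved. The shares of all genes under the alternatives, including the block and the fits with 1 library left out, are not given here. The counts therefore describe members only. For day 21 the count was 2 with a pseudocount of 0.1, median-of-ratios scaling, quantile normalization or robust moderation, 0 with a minimum of 5 FPKM, 8 with array weights, 3 with the label range, 13 with relative depth and 5 in the libraries of that day alone. For day 1 it was 1 in that day's libraries alone, and for day 7 it was 5 with the label range. The treatment by day count was 0 with a minimum of 5 FPKM, 3 with array weights or the label range and 10 with relative depth. For the difference in day 21 minus day 1 between treatments it was 3 with median-of-ratios scaling, array weights or the label range, 2 with quantile normalization and 14 with relative depth. The amphetamine day contrast had 5 with the label range. The saline one had 2 with median-of-ratios scaling or quantile normalization and 1 with array weights, and the saline test over days 1 with array weights or the label range. Among class medians, the ER value on day 1 was 0.044 with array weights, the ER amphetamine day contrast -0.12 with the label range, and the cytosolic and mitochondrial difference between treatments -0.11 with array weights. Of 104 differences of single members, 97 moved by over 1.5 times and 41 changed sign in at least 1 alternative. The cause of these shifts was not tested.

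With the replicate number as a block, the counts were 5 on day 1, 3 on day 21 and 5 for the treatment by day test. Same-numbered libraries of the 2 treatments were in the same label range in 8 of 9 pairs. Several such pairs had consecutive header numbers, such as 6388 and 6389 for replicate 1 of saline and of amphetamine on day 7. The labels do not say which mice were siblings or shared a cage, so mice treated as independent may not have been. Of 18 libraries, 9 correlated best with their own number among the 3 of the other treatment that day. Whether the numbers mark pairs was not settled.

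Leaving out 1 library at a time gave 2 to 15 members on day 1, 1 to 5 on day 21, 2 to 6 in the mean, 0 to 10 for treatment by day, 5 to 21 for amphetamine over days, 0 to 2 for saline over days, 11 to 28 for the amphetamine day contrast, 0 to 1 for the saline one and 0 to 17 for their difference, whose cytosolic and mitochondrial median ran from -0.30 to -0.13. Absolute depth is unknown, so counting error at low FPKM, as for Hspa1a, could not be given.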
